A study of Drosophila melanogaster with 12 samples.

Results

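The 45 genes described here are Drosophila melanogaster genes that still carried only a CG number in the deposited table. Their RNA was raised in wing discs carrying a mutation of the polarity gene scribble (scrib), with or without activated Notch, but not by activated Notch alone. Scrib loss here covers discs labelled fully mutant (S). It also covers discs with activated Notch whose genotype gives mutant cells where a recombinase has acted (NS). The genes were selected from the measured values. CPM is the read count of a gene divided by the library total, times 1000000, averaged over the 3 libraries of a group. A member has a mean of at least 5 CPM in both groups with scrib loss, at least 2 times the wild-type mean in both, and a mean under 1.5 times wild type with Notch alone. Among 17716 deposited gene symbols, 7171 are of the CG form, 2481 of these reach 5 CPM in both scrib groups, and the 45 members are 1.81% of the 2481. Of 4069 other symbols at that level, 48 meet the same thresholds, which is 1.18%.

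The libraries hold polyadenylated RNA of larval wing imaginal discs, the epithelial sacs that form the adult wing, taken 6 days after egg laying, in 12 libraries of 60 pooled discs each, 3 libraries per group. WT, N and NS larvae share the recombinase transgene abxUbx-Flp, the flip-out driver Act>y+>Gal4 with UAS eGFP, and the chromosome FRT82B tubGal80, all in a y-, w- background. N larvae add UAS Nicd, the free intracellular part of Notch, over a plain FRT82B chromosome. NS larvae add UAS Nicd and place the mutation scrib1 on the FRT82B chromosome opposite tubGal80. S larvae carry FRT82B scrib1 over the deficiency Df(3R)BSC752 in a w- background, with no driver, no recombinase and no UAS eGFP. WT replicate 1 carries no UAS Nicd, whereas the genotype text of WT replicates 2 and 3 lists it although their condition reads wild type. S discs are therefore labelled fully mutant for scrib. In NS, scrib1 stands opposite an FRT82B tubGal80 chromosome, an arrangement that gives homozygous mutant cells where the recombinase has acted. Because whole discs were sequenced, a lower level can come from fewer cells that make an RNA or from less RNA per cell, and these cannot be told apart. S also differs from the other groups in its background, and this cannot be told apart from the loss of scrib.

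Scribble is a scaffold protein of the basolateral membrane that keeps the apical and basal sides of epithelial cells distinct. Discs without it lose their layered form and overgrow, and stress signalling through the kinase JNK and the JAK/STAT pathway is known to be active in them. A CG number is the name that a fly gene receives when its open reading frame is predicted, and it stays in use until the gene is studied. All 45 members are annotated as protein coding, and 11 of them have since been given a name in the Ensembl annotation of BDGP6, the build also called dm6.

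Library totals were 21024017 to 42407447 counts. For scrib itself the WT libraries gave 360.0, 457 and 402 CPM, the S libraries 202, 193 and 125, and the NS libraries 392, 419 and 74.4. The Notch transcript, to which transgene reads also count, stood at 673 to 903 CPM in WT, 2118 to 2334 in N, 278 to 637 in S, and 1594, 1408 and 428 in NS. The library labelled NS replicate 3 thus shows neither a WT-like scrib level nor the raised Notch transcript of the other NS libraries. Other transcripts were low in it too, such as shg at 136 CPM against 588 and 519 in NS replicates 1 and 2. Expressed CG genes with exons of 1.49 kb or more stood in it at a median of 0.741 times replicates 1 and 2. Those with shorter exons stood at 1.41. In NS replicate 3, vg at 166 CPM and wg at 129 were below the other NS libraries but above all S libraries. The part of transcript length in these levels was not tested. Summed over 8 fat body markers, S replicate 1 held 13081 CPM, NS replicate 1 held 7324 and N replicate 2 held 3369, against 321 to 1460 in the other 9 libraries. FASN1 made up most of the lower sums in some libraries, with 1340 of 1460 CPM in S replicate 2 and 1093 of 1104 in NS replicate 2. In NS replicate 3 the sum was 1266 CPM, of which FASN1 was 373. Summed over 11 haemocyte (blood cell) markers, S replicates 2 and 3 held 424 and 740 CPM against 82.3 to 234 elsewhere. Neuron markers summed to 203 CPM in S replicate 1 against 15.7 to 73.7 elsewhere, and gut markers to 737 CPM in WT replicate 1 and 180.1 in N replicate 2 against at most 5.43 elsewhere. Salivary gland markers summed to 70.1 CPM in WT replicate 1 and 41.7 in S replicate 3 against at most 5.70 elsewhere. The 12 wing disc markers were present in every library, at a sum of 937 CPM in NS replicate 3 and 1643 to 3930 in the others. Where a member moves with one of these libraries the values are given beside it.

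The members differed widely in size of change. The S mean was 2.02 to 144 times WT with a median of 4.25, and the NS mean was 2.07 to 254 times WT with a median of 3.06. Both ratios reached 4 in 14 members and 3 in 21. These ratios selected the genes and are given as a description. Every S library lay above every WT library in 44 of 45 members (18.9% of 9444 tested genes), and every NS library lay above every WT library in 43 (14.3%). The exceptions were CG43085 in both groups and CG5953 in NS. The N mean relative to WT was 0.179 to 1.49 with a median of 1.03, and 21 members had an N mean below WT. The map of levels by library shows the pattern: S and NS columns are raised for nearly all genes, while N columns stay near WT.

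**Figure D1:**
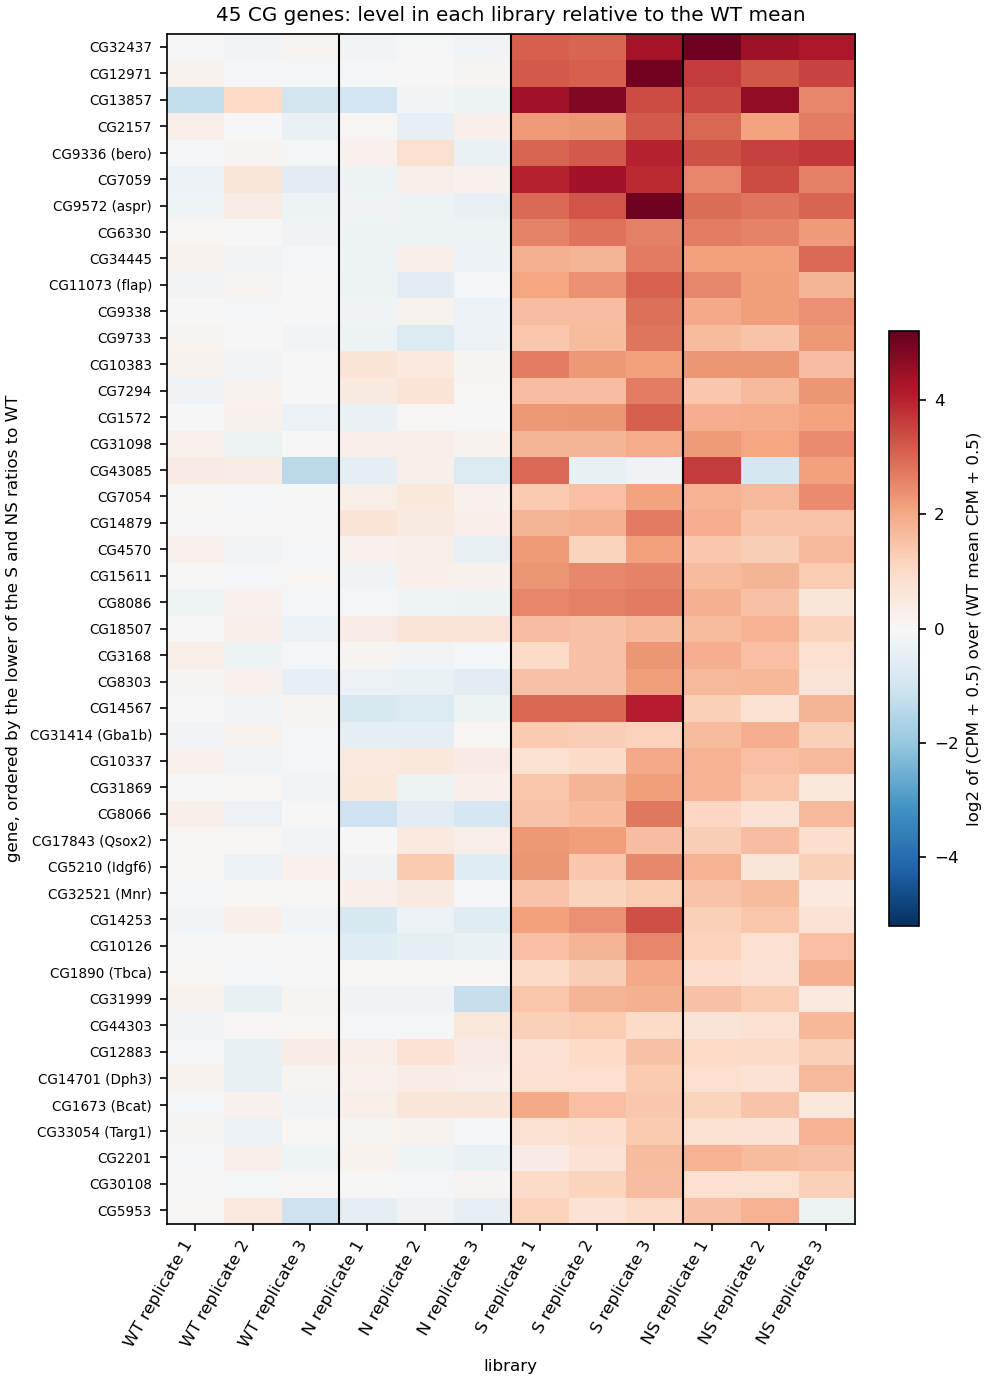
Level of each of the 45 members (vertical axis) in each of the 12 libraries (horizontal axis), as log2 of CPM plus 0.5 over the WT mean plus 0.5; red is above and blue below the WT mean. The S and NS columns are red for all but a few entries, CG43085 is raised in S replicate 1, NS replicate 1 and NS replicate 3 only, and CG5953 is not raised in NS replicate 3.

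Of the 11 renamed members, aspr and bero had the largest ratios to WT. CG9572 is now aspr (asperous), which encodes a predicted secreted protein with EGF-like repeats. It stood at 4.43, 7.14 and 4.30 CPM in WT, 4.62, 4.26 and 3.87 in N, 43.8, 54.6 and 195 in S, and 42.3, 39.2 and 46.8 in NS. All 6 scrib libraries lay above all 6 others, and S replicate 3 alone held 66.5% of the summed S level. CG9336 is now bero (belly roll), a gene for a small membrane-anchored protein of the Ly6 family. Its level was 13.7, 16.3 and 14.2 CPM in WT, 17.2, 26.9 and 11.5 in N, 125, 138 and 242 in S, and 152, 176 and 192 in NS. The groups with and without scrib loss did not overlap, at mean ratios to WT of 11.4 in S and 11.8 in NS.

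CG5210 is now Idgf6, a secreted chitinase-like growth factor of the imaginal disc growth factor family. It stood at 25.2, 19.4 and 28.5 CPM in WT, 21.3, 63.8 and 15.4 in N, 122, 64.6 and 141 in S, and 85.7, 37.6 and 58.5 in NS. The high N library is N replicate 2, and the highest NS library is NS replicate 1, both among the 3 libraries with most fat body marker RNA. Idgf6 no longer met the selection rule without those 3 libraries, nor without any 1 of WT replicate 3, N replicate 1, N replicate 3 or NS replicate 1, and the part of fat body RNA in its level was not tested. CG9733 is listed by RefSeq under the synonym SP10, a serine protease name. It was a low member, at 1.35 ± 0.202 CPM in WT (SD, n = 3) and 7.31 ± 4.18 in S. Its level in S replicate 3 was 12.1 CPM against 4.46 and 5.37 in S replicates 1 and 2.

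The named enzymes had ratios to WT of 2.11 to 4.17 in S. CG17843 is Qsox2, a quiescin sulfhydryl oxidase that forms disulphide bonds in secreted proteins. Its level was 44.5, 45.5 and 39.0 CPM in WT, 43.1, 60.5 and 54.5 in N, 208, 197 and 132 in S, and 106, 133 and 82.3 in NS. All scrib libraries were above all WT and N libraries. CG1673 is Bcat, the branched-chain amino acid transaminase. It stood at 37.4, 46.1 and 35.9 CPM in WT, 49.2, 61.0 and 62.5 in N, 159, 120.1 and 107 in S, and 89.0, 112 and 58.0 in NS. All N libraries lay above WT, NS replicate 3 lay within the N range, and the N ratio of 1.45 placed the gene just inside the rule.

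CG31414 is Gba1b, a glucocerebrosidase of the lysosome, at 3.71 ± 0.499 CPM in WT, 9.75 ± 0.569 in S and 12.4 ± 2.77 in NS (SD, n = 3 each). CG14701 is Dph3, which acts in the diphthamide modification of a translation elongation factor. CG33054 is Targ1, named after a human enzyme that removes ADP-ribose from proteins. Dph3 was low, with means of 4.92 CPM in WT and 10.7 and 11.6 in S and NS, and Targ1 stood at 11.3, 23.9 and 26.8. Both genes no longer met the rule without WT replicate 2, without S replicate 3 or without NS replicate 3. Exons of Dph3 share 22.8% of their bases with Arfip, and those of Targ1 share 29.4% with Targ3, each on the opposite strand. Whether counting used the strand is unknown from the sources used here, and so is how reads in the shared bases were assigned. Arfip had lower means in the scrib groups, at 37.6 CPM in S and 33.2 in NS against 45.8 in WT, and Targ3 stood at 7.999 in WT and 11.9 in both.

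CG1890 is Tbca, a folding cofactor of tubulin. It stood at 91.5, 80.2 and 88.5 CPM in WT, 92.1, 89.5 and 89.7 in N, 175, 211 and 342 in S, and 166, 148 and 311 in NS. All scrib libraries lay above the rest, with replicate 3 above replicates 1 and 2 in both groups. CG11073, now flap, had means of 18.5 ± 1.92 CPM in WT, 14.9 ± 2.56 in N, 112 ± 41.5 in S and 85.7 ± 20.97 in NS (SD, n = 3 each). CG32521, now Mnr, had means of 48.4 ± 3.05 in WT, 57.4 ± 10.3 in N, 122 ± 13.2 in S and 119.7 ± 44.9 in NS.

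**Figure D2:**
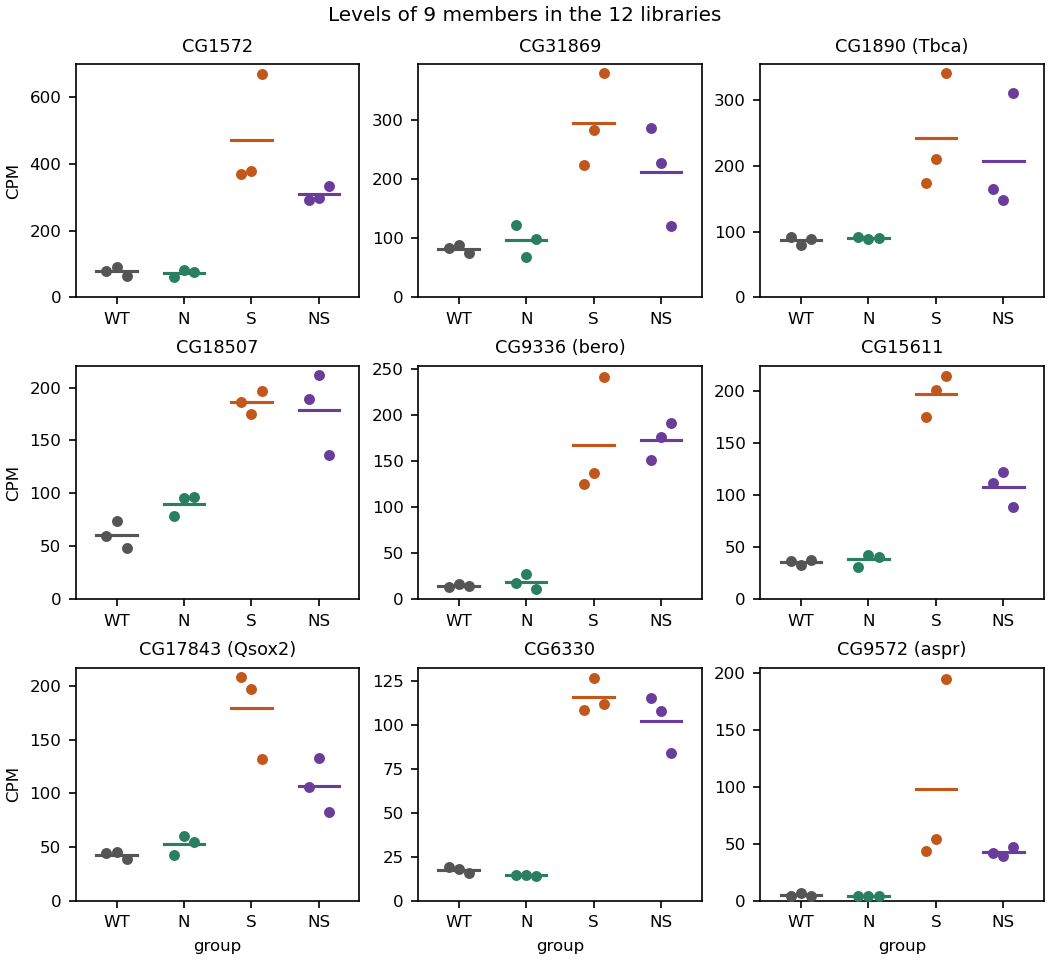
CPM (vertical axis, linear from 0) of 9 members in the 4 groups; each point is 1 library, in order of replicate number, and each bar is the group mean. In S and NS the points lie above every WT point for all 9 genes, and single libraries such as S replicate 3 for CG9572 (195 CPM) and NS replicate 3 for CG1890 (311 CPM) stand above their group.

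The most abundant member had no name. CG1572 was at 80.0, 89.6 and 63.7 CPM in WT, 61.7, 81.2 and 77.2 in N, 368, 379 and 667 in S, and 292, 298 and 334 in NS. Per kilobase of exon, it was also the highest member in S, at 365 CPM per kb against 60.2 in WT, followed by Tbca at 345 and bero at 209 CPM per kb. The groups with and without scrib loss were separated by more than 3 times the highest WT or N library. CG6330 was at 19.2, 18.1 and 15.7 CPM in WT, 14.8, 14.7 and 14.4 in N, 109, 127 and 112 in S, and 115.1, 108 and 84.1 in NS. All scrib libraries lay far above the others, and the ratios to WT were 6.57 in S and 5.80 in NS.

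CG15611 stood at 36.3, 32.8 and 37.1 CPM in WT, 31.2, 42.4 and 40.9 in N, 175, 201 and 215 in S, and 112, 122 and 88.7 in NS, so that S lay above NS and NS above the rest with no overlap. CG18507 was at 60.6 ± 12.6 CPM in WT, 90.3 ± 9.76 in N, 186 ± 10.8 in S and 179 ± 39.0 in NS (SD, n = 3 each). CG31869 was at 82.7 ± 7.19 in WT, 96.8 ± 27.0 in N, 296 ± 78.7 in S and 212 ± 83.8 in NS. CG31869 ranged from 122 to 287 CPM within NS, lowest in NS replicate 3. CG3168, which RefSeq lists under the solute carrier name Slc22a18, showed opposite orders in the scrib groups: 75.0, 107 and 184 CPM in S replicates 1 to 3 and 140.3, 109.7 and 66.8 in NS replicates 1 to 3, against 30.8 to 45.5 in WT. CG7054 was at 21.7 ± 0.964 CPM in WT, 71.7 ± 19.8 in S and 89.4 ± 27.4 in NS, and all N libraries lay above WT at a mean of 28.3 CPM.

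A few members were close to silent without scrib loss, with WT means under 1 CPM in 3 of 45. CG32437 was counted 6 times in the 3 WT libraries together and 1 time in the 3 N libraries, against 713 reads in S and 1324 in NS. The S libraries gave 4.21, 4.05 and 10.7 CPM and the NS libraries 18.03, 11.4 and 9.76 CPM. The ratio of summed levels to WT was 123 in S, with an exact 95% counting interval of 56.4 to 337, and 255 in NS, with 117 to 696. CG12971 was counted 7 times in WT and 8 times in N, against 1004 reads in S and 589 in NS. The S libraries gave 4.56, 4.35 and 17.7 CPM and the NS libraries 6.52, 4.71 and 5.92 CPM, so that S replicate 3 held 66.5% of the S level. The corresponding ratios were 149, with an interval of 72.0 to 371, and 97.3, with 46.9 to 243. These intervals cover counting error only, and not the spread between pools. CG2157 was at 0.227 to 0.636 CPM in WT and 0.194 to 0.613 in N, against 3.77 to 7.88 in S and 3.47 to 6.94 in NS.

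Several members lie next to each other in the genome. CG12971 (3L:21355100-21356495, minus strand) and CG32437 (3L:21357683-21359867, plus strand) are divergent neighbours with 1.19 kb and no gene between them, in BDGP6 coordinates. Both of these nearly silent genes were raised, but their order differed: CG12971 had the higher mean in S (8.85 against 5.72 CPM in NS) and CG32437 the higher mean in NS (13.1 against 6.32 CPM in S). The libraries of S and NS overlapped for each of them. CG7059 (3R:22389780-22392349, plus strand) and CG13857 (3R:22392189-22394104, minus strand) overlap at their ends. The overlap covers 9.69% of the exon bases of CG7059 and 11.2% of those of CG13857, and how reads there were assigned is unknown. CG7059 stood at 2.31, 4.84 and 1.79 CPM in WT, 2.37, 3.82 and 3.51 in N, 54.8, 72.2 and 51.0 in S, and 19.5, 35.7 and 20.7 in NS. CG13857 stood at 0.371, 3.95 and 0.606 CPM in WT, 0.581, 1.47 and 1.27 in N, 43.7, 60.0 and 21.9 in S, and 22.7, 52.3 and 11.9 in NS. In every group both genes were highest in replicate 2. Without WT replicate 2 neither met the rule, because their N means then passed 1.5 times WT.

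CG9336 (bero; 2L:20858695-20861014) and CG9338 (2L:20865215-20867709) lie 4.20 kb apart on the plus strand, separated only by the annotated pseudogene CR9337. CG9338 stood at 13.8, 13.3 and 14.1 CPM in WT, 12.1, 15.5 and 11.1 in N, 43.0, 43.3 and 102 in S, and 55.5, 63.8 and 72.3 in NS. Like its neighbour, it was highest in S replicate 3, but its ratio to WT of 4.57 in S was lower than the 11.4 of bero. CG6330 and CG14253 lie 20.1 kb apart on 3R with 3 genes between them, and they are the members nearest to scrib, at 346 and 374 kb from it. Where the deficiency carried by S begins and ends is unknown from the sources used here. CG14253 stood at 3.00, 4.16 and 3.08 CPM in WT, 16.5, 19.8 and 39.0 in S, and 8.62, 10.1 and 6.02 in NS. Its exons share 69.6% of their bases with CG46313 on the same strand, so its counts are uncertain. In order along the chromosomes, 8 members lie within 100 kb of the next member. In 2 of these pairs no gene lies between, and the others have up to 26 genes between them. The same count was not made for other genes. By chromosome arm, 35.6% of the members are on 3R, where scrib lies, against 25.4% of the 2481 CG genes at the same level, and 11.1% are on 3L against 20.3%; these shares are a description without a test.

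**Figure D3:**
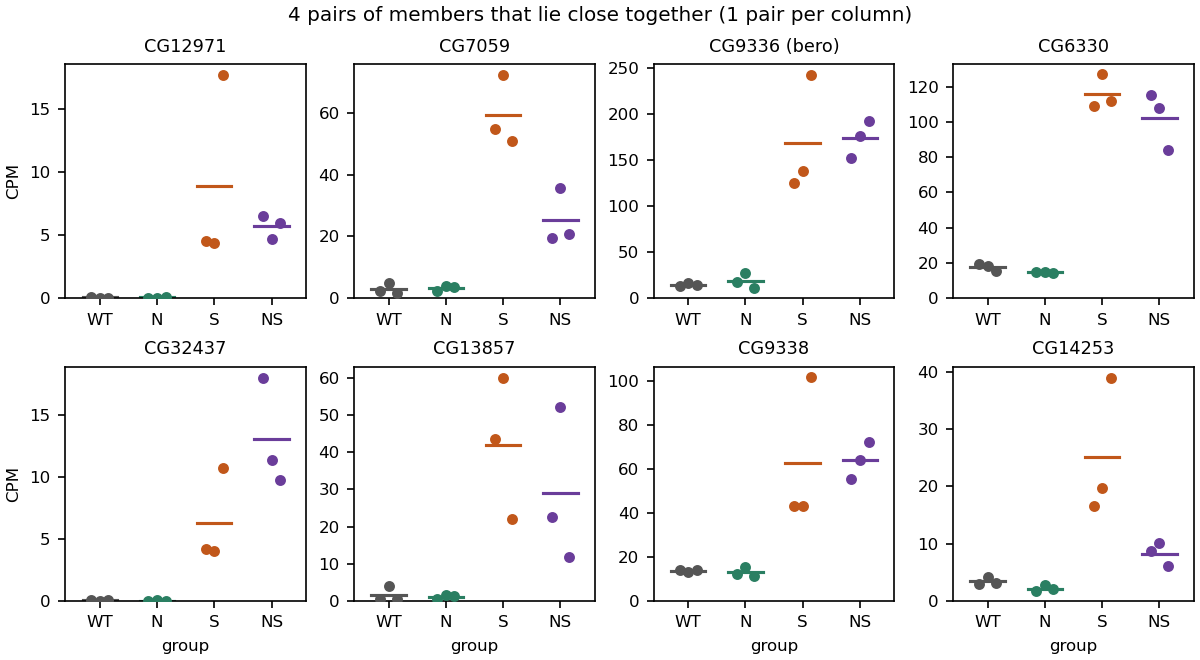
CPM (vertical axis, linear from 0) of 4 pairs of members that lie close together, 1 pair per column; points are libraries in order of replicate number and bars are group means. CG7059 and CG13857 are both highest in replicate 2 of every group, whereas CG12971 has its highest library in S (17.7 CPM) and CG32437 in NS (18.03 CPM).

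The remaining unnamed members had WT means between 2.29 and 25.3 CPM. CG14567 showed the widest gap between the scrib groups, with 3.53, 3.27 and 4.07 CPM in WT, 1.79, 1.94 and 2.95 in N, 31.8, 32.2 and 70.1 in S, and 9.15, 6.56 and 13.5 in NS. All N libraries lay below WT, and all S libraries above NS. CG8086, with 6.13 kb the longest in exons, stood at 2.44, 3.48 and 2.75 CPM in WT, 2.65, 2.38 and 2.31 in N, 19.2, 20.4 and 21.8 in S, and 11.9, 9.13 and 4.67 in NS. S was uniform here, while NS lay between S and WT. CG31098 was the reverse case, with 6.47, 4.47 and 5.41 CPM in WT, 19.6, 19.7 and 22.3 in S, and 27.4, 24.5 and 31.9 in NS, so that every NS library was above every S library. CG2201 was likewise higher in NS, at 28.9, 25.7 and 23.6 CPM, than in S replicates 1 and 2, at 10.8 and 13.6, but S replicate 3 reached 25.6.

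Others of this kind were CG10383, with a mean ratio to WT of 5.32 in S and 4.42 in NS, CG34445 with 5.19 and 6.403, CG8066 with 4.68 and 2.54, and CG10126 with 4.19 and 2.41. CG7294 had ratios of 4.81 in S and 4.15 in NS, CG14879 had 4.73 and 3.24, and CG4570 had 4.25 and 3.06. CG8303 had 3.52 and 2.78, CG31999 had 3.34 and 2.33, and CG10337 had 2.61 and 3.32, its S values of 19.4 and 23.0 CPM in replicates 1 and 2 lying well below the 44.7 of replicate 3. CG8066 had the lowest N ratio among members with more than 10 WT reads, at 0.5001, and its N libraries, at 1.44 to 2.24 CPM, lay below the 2.85 to 4.51 of WT. Lower ratios were found for CG30108, at 2.52 and 2.07, and for CG12883, at 2.29 and 2.23. CG44303 had 2.41 and 2.31, and 85.4% of its exon bases are shared with Pink1 on the opposite strand. Pink1 was far more abundant, at means of 59.6 CPM in WT, 62.03 in S and 65.8 in NS, so the value of CG44303 is uncertain.

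CG43085 met the rule through single libraries. It stood at 3.98, 3.84 and 0.758 CPM in WT, 1.87, 3.51 and 1.51 in N, 25.5, 2.04 and 2.496 in S, and 41.1, 1.33 and 14.4 in NS. S replicate 1 held 84.9% of the S level and NS replicate 1 held 72.3% of the NS level. Fat body markers were highest in the same libraries, with 13081 and 7324 CPM, and stood at 1266 CPM in NS replicate 3. Of these markers only FASN1 was lower in NS replicate 3 than in NS replicate 2, and Lsp1beta stood at 265 against 3.42 CPM. S replicate 1 is also the library with most neuron marker RNA. Without S replicate 1, or without the 3 libraries with most fat body marker RNA CG43085 no longer met the rule, and the part of fat body or neuron RNA was not tested. CG5953 had WT levels of 27.5, 36.7 and 11.8 CPM and NS levels of 73.5, 89.2 and 20.8 CPM, so that NS replicate 3 lay within the WT range.

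The difference between NS and S was not part of the rule, and it was the one group difference tested. It asks whether activated Notch changes the level that these genes reach with scrib loss, though the genotypes also differ in background and in the share of mutant cells. By edgeR's quasi-likelihood test over all 9444 genes that passed the filter on low counts, which include all 45 members, 4 members were lower in NS at a Benjamini-Hochberg adjusted p under 0.05, against 2.27% of genes in general. None was higher (1.57% of genes in general). At an unadjusted edgeR p under 0.05, 2 members were higher and 10 lower, against 760 and 856 of all 9444 genes. With DESeq2 the counts were 6 lower (5.15% of genes), which added CG7059 (DESeq2 adjusted p = 0.0283) and Qsox2 (0.0221), and 0 higher (4.08%). The median log2 difference, NS minus S, was −0.19 over the members and 0.01 over all genes, with 29 of 45 members and 48.6% of all genes negative.

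CG15611 fell by 0.84 ± 0.141 in NS relative to S on the log2 scale (SE; edgeR adjusted p = 0.0081), and CG14567 fell by 2.12 ± 0.378 (edgeR adjusted p = 0.0111). CG14253 fell by 1.57 ± 0.333 (edgeR adjusted p = 0.0266) and CG8086 fell by 1.24 ± 0.267 (edgeR adjusted p = 0.029). The counts of CG14253 are uncertain, since its exons share bases with CG46313. In each of the 4 genes, all 3 NS libraries lay below all 3 S libraries. CG7059 and CG1572 also had this order without passing the test, CG7059 at −1.19 ± 0.363 (edgeR adjusted p = 0.111) and CG1572 at −0.56 ± 0.248 (0.284). In the opposite order, CG31098 stood at 0.50 ± 0.178 (0.168). Such separation was found in 6 members with S above NS, against 10.3% of genes tested, and in 1 member with NS above S, against 7.34%.

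S and NS libraries of the same replicate number deviated together (r = 0.328 to 0.496 across genes in the 3 pairs), so a fit with the replicate as a block was also made. With the block over all 12 libraries, CG7059 also passed as lower (edgeR adjusted p = 0.0255). With the block over the S and NS libraries alone, 1 member passed, CG14567 (edgeR adjusted p = 0.0105). Without the block in those 6 libraries 0 members passed, at differences of −0.84 to −2.10 for the 4 genes. Of all tested genes, 177, 65 and 25 were lower in these fits, in that order. Of the 4 lower members, 2 passed without NS replicate 1 (CG15611 and CG8086) and 2 without NS replicate 2 (CG14567 and CG15611). Of all tested genes, 127 and 130 were lower in those fits. Without NS replicate 3, CG14253 no longer passed and CG10126 did, at −1.03 (edgeR adjusted p = 0.044), and 334 of all tested genes were lower. The differences were then −2.535 for CG14567, −1.45 for CG14253, −0.99 for CG8086 and −0.78 for CG15611. CG14253, CG8086 and CG15611 have exons of over 1.49 kb and were lowest in NS replicate 3 among NS libraries. The part of transcript length in these differences was not tested. Without the 3 libraries with most fat body marker RNA 0 members passed in a smaller fit, while 45 of all tested genes were lower. The edgeR adjusted p of the 4 genes was 0.0939 to 0.106. The differences were then −2.22 for CG14567, −1.80 for CG14253, −1.56 for CG8086 and −0.91 for CG15611, each at least as large as with all libraries. Without S replicate 3, CG10337 and CG2201 passed as higher in NS, at log2 differences of 0.87 and 1.16 (edgeR adjusted p = 0.0179 and 0.0212). In that fit 405 of all tested genes were higher and 281 lower. In the same fit Qsox2 also passed as lower in NS, at −0.87 (edgeR adjusted p = 0.0235).

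The other 41 members did not pass edgeR's test between NS and S, at log2 differences from −1.19 to 1.08 and standard errors from 0.124 to 1.15. These errors still allow differences of over 1 on the log2 scale for some genes, such as CG9572 at −1.14 ± 0.475 (edgeR adjusted p = 0.25), CG32437 at 1.08 ± 0.603 (0.419) and Qsox2 at −0.71 ± 0.207 (0.097). Without S replicate 3 the difference was −0.13 for CG9572 and 1.70 for CG32437, so that 1 library sets much of both values. Genes of JNK signalling and of the JAK/STAT pathway, which act in discs without scrib, gave a background for this comparison. Of 20 JNK pathway and target genes 1 was higher in NS, the cell death gene rpr, and 0 lower, with a median of 0.05. Of 12 JAK/STAT genes 0 passed in either direction, with a median of 0.06. Of 11 haemocyte markers 2 were lower in NS by edgeR's test (Hml and NimC1) and 0 higher, with a median of −1.85, against the 2.27% of all genes that were lower. Of 8 neuron markers tested 0 passed, with a median of −1.83. The sum over all 10 neuron markers was 203 CPM in S replicate 1 but 34.8 and 30.7 in S replicates 2 and 3. In NS replicates 1 to 3 it was 68.8, 47.7 and 15.7 CPM. Of 8 muscle precursor and muscle markers 2 were lower (htl and stumps), with a median of −0.53. Of 6 trachea markers 1 was lower (vvl), with a median of −0.39. Of 12 wing disc markers 2 were higher (vg and wg) and 1 lower (pnr), with a median of 0.16. Fat body, glia and salivary gland markers had medians of −0.59, −0.21 and −7.71, and gut and germline markers 0.41 and 0.09, with 0 passing. The part of these cell types in the lower members was not tested.

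**Figure D4:**
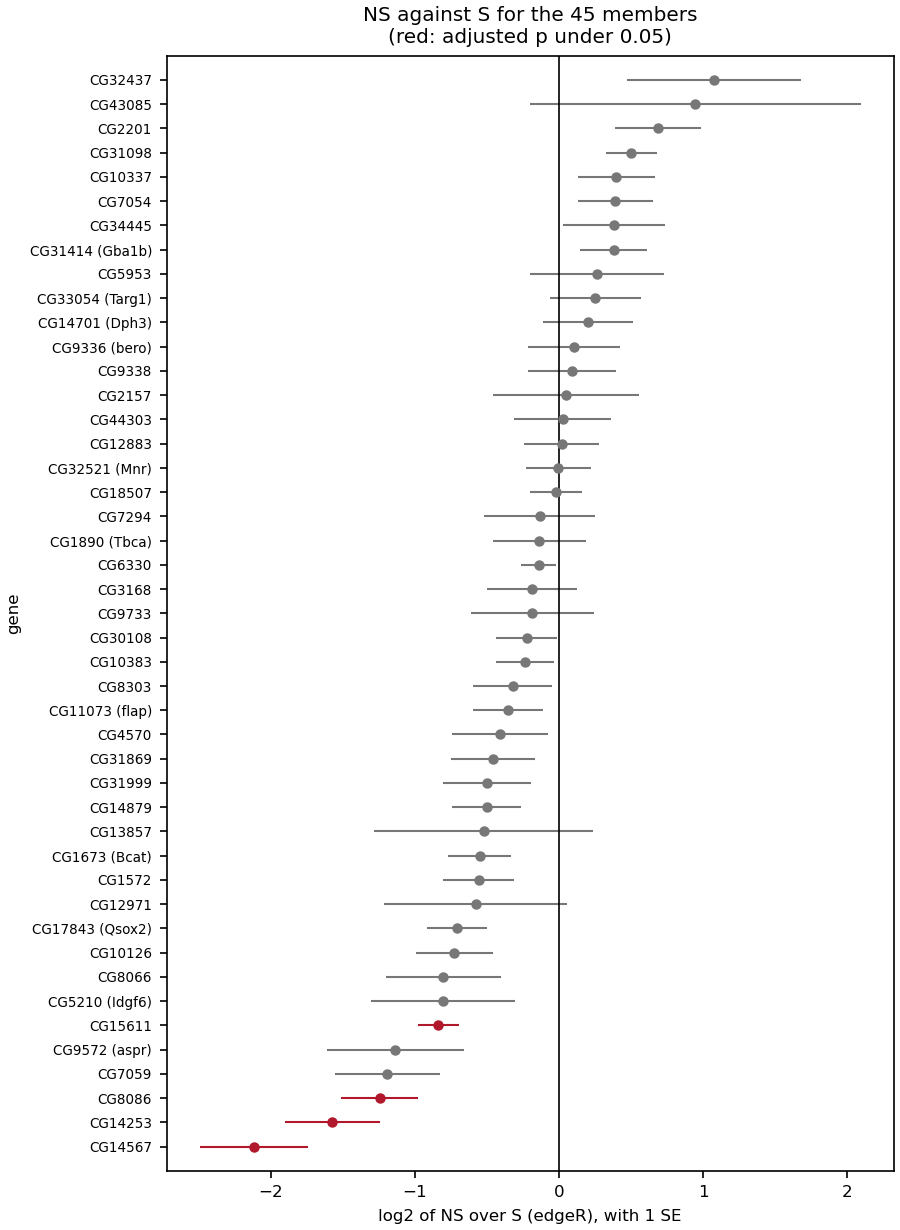
Log2 difference of NS over S (horizontal axis) for the 45 members (vertical axis), with bars of 1 SE from the edgeR fit; red points have an adjusted p under 0.05. The 4 red genes are all below 0, from −2.12 for CG14567 to −0.84 for CG15611, and the other 41 genes lie between −1.19 and 1.08.

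Activated Notch alone left most members near WT, as the rule required. All N libraries lay above all WT libraries in 6 members (15.5% of genes tested) and below them in 6 (16.2%), and the groups overlapped in 33. The 6 above were CG18507, Bcat, CG14879, CG10337, CG7054 and Dph3, at N ratios of 1.26 to 1.49. The 6 below were CG8066, CG14567, CG14253, CG9733, CG10126 and CG6330, at 0.5001 to 0.829. CG14567 and CG14253 are also among the 4 that were lower in NS than in S. The N to WT difference chose the members and was not tested here.

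Single libraries weighed on many members. S replicate 3 was the highest of all 12 libraries for 25 of the 45, and the highest S library for 33, or 73.3%, against 43.4% of the 2481 CG genes at the same level. Among NS libraries replicate 3 was highest for 19 members, 42.2% in both sets. The level of NS replicate 3 relative to replicates 1 and 2 went with exon length, as the plot of that ratio against length shows. For the 22 members with less than the median exon length of 1.49 kb it had a median of 1.40, and for the 23 others 0.671. In the same length classes the CG genes at the same level had medians of 1.41 and 0.741. In S the corresponding medians for members were 1.80 and 1.14, both above the 1.13 and 0.932 of the CG genes at that level. The haemocyte marker sum was also highest in S replicate 3, at 740 CPM. Salivary gland markers summed to 41.7 CPM there, against 0.279 and 0.150 in S replicates 1 and 2. The part of these tissues in the levels of the members was not tested.

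**Figure D5:**
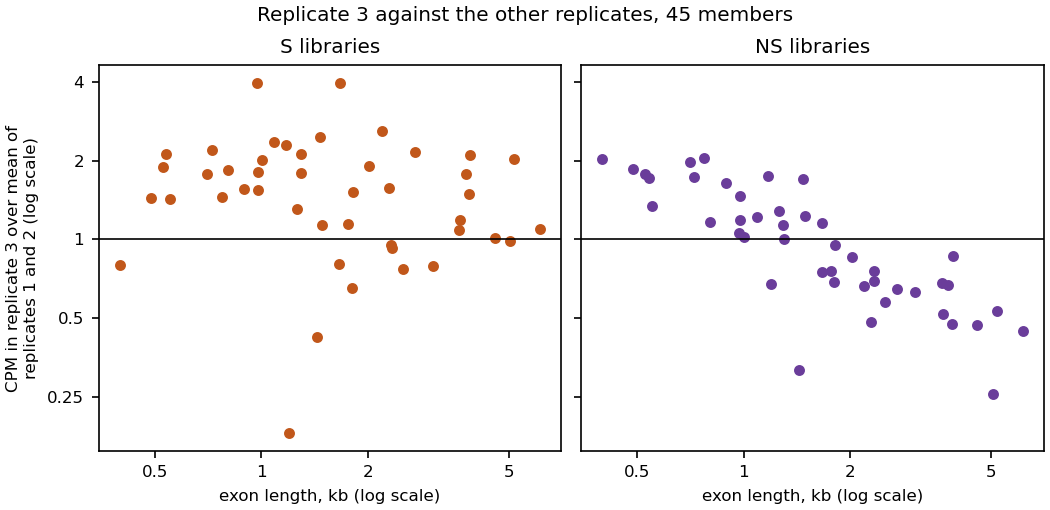
CPM in replicate 3 divided by the mean of replicates 1 and 2 (vertical axis, log scale) against exon length in kb (horizontal axis, log scale) for the 45 members, in S (left) and NS (right). In NS most short genes lie above 1 and most long genes below it (medians 1.40 and 0.671), while in S most genes lie above 1 (medians 1.80 and 1.14).

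Whichever single library was left out, 23 of the 45 genes still met the rule. Leaving out S replicate 3 removed the most, 9 genes: CG10337, CG12883, CG12971, CG14701, CG2157, CG2201, CG32437, CG33054 and CG9733. The members nearest to the limits were CG2157, with 5.23 CPM in S, just above the minimum, CG5953, with an S mean 2.02 times WT, and CG18507, with an N ratio of 1.49. Just outside were CG34446, with 4.74 CPM in NS, CG2277, whose lower ratio to WT was 1.995, and CG14968, with an N ratio of 1.53. The set depended on the scaling of the libraries: with TMM factors, which scale by the bulk of genes, 79 genes met the rule, and all 45 were among them.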

How the data were processed

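The authors deposited raw counts of reads as 1 column per library, from libraries made with a stranded mRNA kit from total RNA, per the labels' protocols. TopHat2 2.0.9, Bowtie2 2.1.0, HTSeq, edgeR, DESeq and the build dm6 are named in the submitters' processing notes; for the annotation release and strand setting, not given in the sources used here, no value was assumed. The table's 2 blank lines were skipped. The members and gene lists were chosen with earlier results of these data known. Positions and exon lengths come from Ensembl release 115; 17601 of 17716 symbols and all 45 members were placed.

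Library totals of 21024017 to 42407447 counts limit precision for members of few CPM. NS against S was tested with edgeR 4.0.16 in R 4.3.3 (filterByExpr, TMM, quasi-likelihood, 12 libraries, 1 coefficient per group, Benjamini-Hochberg over 9444 genes); the SE is the log2 change over the square root of F. P-values reflect only how these pools vary, with a spread shared over all groups. Members were named in the text if called, abundant, of large ratio, near a threshold, ruled by 1 library, adjacent to another member or renamed, and others were added as examples after their values were seen; protein identity and promoter motifs were not computed here. Replicates differed by more than sampling noise (lowest chi-square per gene 23.8). Same-numbered S and NS libraries deviated together (r = 0.454, 0.496 and 0.328), which over all 18 same-numbered pairs had a median of −0.02. Alternatives were DESeq2 1.42.0, RLE factors, library totals, no filter, S and NS alone, the block, and each library left out. Chosen after seeing the data were 2 more fits, leaving out replicate 3 of S and of NS, and the 3 libraries highest in fat body markers. Tested on simulated data for NS against S over 9329 genes, the fit found 40 of the 100 genes altered 2-fold and 87 of the 100 altered 4-fold, with 9 unchanged genes called. Apart from the altered genes, all simulated libraries had the same mean per gene and a spread pooled over the groups. They held no length effect and no outlying library, so these counts may not carry over to the real comparison.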

Additional observations from a re-analysis of the deposited data

How the results depend on the processing

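The 10 members followed in NS against S were those with no overlap of NS and S libraries (6 lower and 1 higher in NS), and CG17843, CG32437 and CG9572. None turned its direction under the alternatives run. This choice largely fixed that outcome, since leaving out a library does not undo a full separation. Members with differences near 0 were not followed. The 148 genes higher in NS became 385 with DESeq2, 20 with the S and NS libraries alone, 28 with the replicate block in those libraries, 732 without replicate 3 of S and of NS and 32 without the 3 libraries highest in fat body markers; with each library left out in turn they ranged from 77 (without S replicate 2) to 405 (without S replicate 3), and were 90 without S replicate 1 and 362 without NS replicate 3. Genes lower in NS, 214 in all, changed to 486, 25, 65, 514 and 45 in the same 5 settings and 127 to 334 with a library left out, lowest without NS replicate 1 (127) and NS replicate 2 (130) and highest without NS replicate 3 (334). The 4 lower members became 0 with S and NS alone, 1 with the replicate block in those libraries, 0 without the fat body libraries, and 2 to 5 with a library left out; the 0 higher members became 2 without S replicate 3, 2 without replicate 3 of S and of NS, and 0 to 2 over all libraries left out. The log2 differences of the 4 genes were −0.84 to −2.10 with S and NS alone and −0.91 to −2.22 without the fat body libraries, against −0.84 to −2.12 in the main result. The fits of S and NS alone hold fewer libraries, and they take the spread from these groups only, while the main fit shares it with WT and N. Between replicates the chi-square per gene was 23.8 to 67.7 in N and 77.4 to 124 in WT. In S it was 87.4 to 243 and in NS 37.8 to 740, so the main p-values may be too small for this comparison. The part of each cause was not tested. The replicate block over all 12 libraries gave 114 higher and 177 lower genes and changed no member's call other than that of CG7059. The number of members was 163 at 1.5 times WT, 21 at 3 times WT and 79 with TMM-scaled totals, and 36 to 59 with a library left out; the other alternatives of the rule gave 32 to 65. Members with few reads in WT have wide counting intervals, and the spread between pools adds to them.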
